A study of Mus musculus with 6 samples.

Results

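Cyclin B, its partner kinase CDK1 and the enzymes that switch this kinase on and off were examined as a group of 10 genes. The members were taken by symbol from a list of maturation-promoting factor genes and matched to Ensembl identifiers, and all 10 were found among the 53465 genes of the count table. They comprised the cyclins *Ccnb1*, *Ccnb2* and *Ccnb3*, the kinase *Cdk1*, the activating phosphatases *Cdc25a*, *Cdc25b* and *Cdc25c*, and the inhibitory kinases *Wee1*, *Wee2* and *Pkmyt1*. Cyclin B bound to CDK1 is maturation-promoting factor, the activity that takes the oocyte out of prophase arrest and holds it at metaphase II until fertilization. The WEE1 and MYT1 kinases keep the complex inactive by phosphorylating CDK1, and the CDC25 phosphatases remove these phosphates. Fully grown mouse oocytes make almost no new mRNA, so cyclin B protein is translated from stored transcripts and is destroyed through the anaphase-promoting complex at the exit from each division.

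RNA had been sequenced from 6 pools of metaphase II oocytes of female Kunming mice aged 9 to 10 months, an age at which fertility is declining. Oocytes of the control group (3 pools) were matured in vitro in M16 medium without quercetin, and those of the quercetin group (3 pools) in the same medium with 10 μM of this plant flavonol. Each pool held 15 oocytes from 3 mice, so a value is an average over oocytes and animals, and fewer cells carrying a transcript cannot be told apart from less of it per cell. Library preparation (Smart-seq HT) started from the poly(A) tail and copied whole transcripts. Total counts were 8671210, 7880467 and 8905681 in control pools 1 to 3 and 8465142, 9938743 and 8109613 in quercetin pools 1 to 3. The p-values below set the difference between the groups against the spread between these pools.

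The oocyte label was checked against marker genes. The 11 oocyte markers summed to between 24508 and 29537 CPM (library-scaled counts, with TMM factors for composition) in the 6 pools, and *Dppa3*, a maternal factor, was the most abundant of them. The sum hides wide spread in single markers, of which *Ooep* and *Zp2* were singled out after their values were seen. Means were higher with quercetin for *Gdf9*, *Bmp15*, *Zp1*, *Nlrp5*, *Mos* and *Dppa3*, and lower for *Zp2*, *Zp3*, *Ooep*, *Padi6* and *Oosp1*. The groups lay apart for *Gdf9* only, at 5566 to 5846 CPM in controls and 5988 to 7481 CPM with quercetin. *Ooep* averaged 716 CPM in controls and 379 CPM with quercetin, with overlapping pools. Its log2 fold change was -0.92 (SE 0.38, unadjusted p = 0.0412 and adjusted p = 0.988 by edgeR). *Zp2* ran from 130.5 CPM in quercetin pool 1 and 223 CPM in control pool 1 to 1556 CPM in control pool 2. Of 14 granulosa and cumulus cell markers, 5 (*Amh*, *Amhr2*, *Foxl2*, *Ptx3* and *Nr5a1*) were at 0 in every pool. The summed CPM of the 14 was 81.0, 68.9 and 85.0 in control pools 1 to 3 and 95.03, 96.3 and 89.8 in quercetin pools 1 to 3, and the aromatase gene *Cyp19a1* made up most of it, at 64.1 CPM in controls and 74.4 CPM with quercetin. Without *Cyp19a1*, the sums were 10.7 to 16.4 CPM in controls and 16.9 to 20.7 CPM with quercetin. Without *Kitl* as well, a marker chosen because its values lay apart, the sums of the other 12 overlapped, at 2.996 to 7.74 CPM in controls and 4.46 to 8.49 CPM with quercetin. The choice of *Kitl* favoured that overlap, so no conclusion is drawn from it. Of the 9 with counts, 7 had a higher mean with quercetin and 2, *Fshr* and *Star*, a lower one. The groups lay apart for 4 of these 9, namely *Cyp19a1*, *Kitl*, *Tnfaip6* and *Lhcgr*, and overlapped for the other 5. Of all genes tested below, which include neither *Tnfaip6* nor *Lhcgr*, 10.6% lay apart. *Kitl* was at 7.67 to 8.64 CPM in controls and 11.9 to 12.4 CPM with quercetin. Its log2 fold change was 0.59 (SE 0.21, unadjusted p = 0.0209 and adjusted p = 0.988 by edgeR). *Tnfaip6* and *Lhcgr* were at 0 in every control pool and had 2, 8 and 4 counts and 2, 4 and 2 counts in quercetin pools 1 to 3. Of 6 blood cell markers, 4 were at 0 in every pool, and the most abundant, *Ptprc*, averaged 0.189 CPM in controls and 0.362 CPM with quercetin. Counts on the mitochondrial chromosome took 3.11%, 2.96% and 2.47% of the total in control pools 1 to 3 and 2.29%, 2.22% and 2.10% in quercetin pools 1 to 3. The mitochondrial share and the sum of all 14 granulosa markers thus did not overlap between the groups, and the part of either in the results on the cyclin B and CDK1 genes was not tested.

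The comparison of quercetin with control asked whether transcripts of the maturation-promoting factor genes differed between oocytes matured with and without the compound. None of the members passed the criteria for a changed gene, namely more than a 2-fold difference together with a Benjamini-Hochberg adjusted p under 0.05 over 11842 genes tested by edgeR's quasi-likelihood method. The same criteria called 0 of all tested genes (0%), while DESeq2 called 12 genes and edgeR's likelihood ratio test 16, none of them a member. The count filter of this fit was passed by 9 of 10 members, all but *Cdc25c*. At an unadjusted p under 0.05, 0 of 9 members were higher with quercetin, against 2.14% of all tested genes, and 0 of 9 were lower, against 1.89%. In either direction this threshold was passed by 477 of 11842 genes, or 4.03%. Fold changes were positive for 4 members and negative for 5, with a median log2 fold change of -0.14 (all tested genes: -0.03). The 3 pools of one group lay entirely apart in TMM-scaled CPM from those of the other for 2 of 9 members, *Ccnb1* and *Wee2*, and for 10.6% of all tested genes.

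Levels per exon length, given as TPM computed from the counts, separated the members widely. *Ccnb1* stood first at 2231 ± 315 TPM (mean ± SD over 6 pools) and ranked 61 among all tested genes. *Ccnb2* at 599 ± 76.7 TPM and *Wee2* at 581 ± 34.5 TPM followed, and their ranges over the 6 pools overlapped. *Cdk1*, the catalytic subunit that both cyclins bind, came after them at 67.4 ± 11.9 TPM, clear of its neighbours on either side. *Pkmyt1* (11.2 ± 1.40 TPM), *Ccnb3* (7.14 ± 3.43 TPM), *Cdc25b* (5.14 ± 1.49 TPM), *Cdc25a* (3.21 ± 1.39 TPM) and *Wee1* (1.13 ± 0.484 TPM) came next, each with a range that overlapped that of the gene before or after it. *Cdc25c* was last at 0.125 ± 0.124 TPM, and its range lay under that of *Wee1*.

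**Figure D1:**
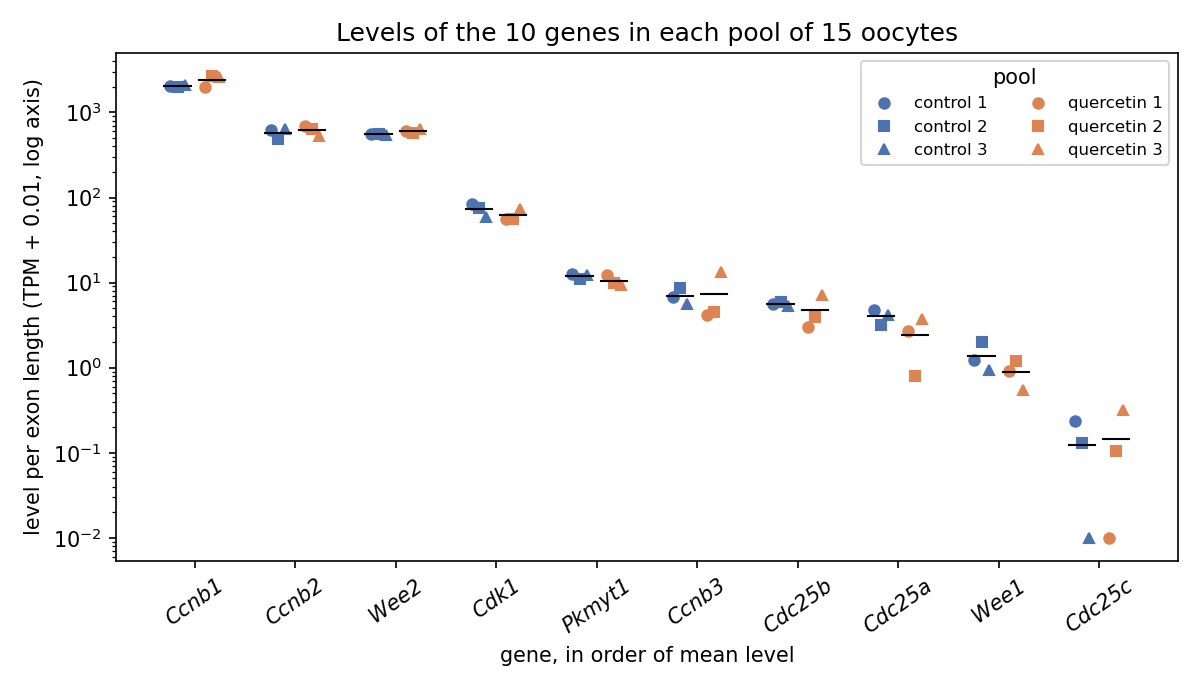
Level per exon length (TPM plus 0.01, log axis) of the 10 genes in each of 6 pools; blue points are control pools, orange points quercetin pools, symbols give the pool number and black lines the mean of 3 pools. *Ccnb1*, *Ccnb2* and *Wee2* were at 489.96 TPM or more in every pool, *Cdk1* between 56.5 and 84.4 TPM, and *Cdc25c* at 0 in control pool 3 and quercetin pool 1.

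Among the cyclins, *Ccnb1* encodes cyclin B1, the main B-type cyclin of dividing cells, and *Ccnb1* (ENSMUSG00000041431) lies at chr13:100778650-100786570 (GRCm38, minus strand). Its counts were 31205, 28250 and 33258 in control pools 1 to 3 and 29988, 47701 and 35609 in quercetin pools 1 to 3. Scaled to library size and composition, these were 3491, 3385 and 3730 CPM in the controls and 3745, 5216 and 4178 CPM with quercetin. Quercetin pool 2 stood highest, and the lowest quercetin pool exceeded the highest control pool only narrowly. The log2 fold change was 0.31 (SE 0.16, 95% interval -0.05 to 0.67, adjusted p = 0.988 in edgeR's quasi-likelihood test), and the two-sided exact permutation test gave p = 0.1, the smallest value that 3 pools against 3 allow. Without quercetin pool 2 the estimate fell to 0.17, and without quercetin pool 1 it rose to 0.41. Scaled by library size only, the values were 3599, 3585 and 3734 CPM in controls and 3543, 4800 and 4391 CPM with quercetin, and the groups overlapped. *Ccnb1* took 0.36%, 0.358% and 0.373% of all counts in the control pools and 0.354%, 0.48% and 0.439% in the quercetin pools.

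The *Ccnb1* transcript has near-identical copies elsewhere in the genome, and how reads that match several genes were counted is not given in the sources used here. In all, 27.7% of the 31-base words of *Ccnb1* transcripts also occur in transcripts of other genes. There were 4 processed pseudogenes with at least 10% of their own words in *Ccnb1*. *Ccnb1-ps* on chromosome 7 (42105899 to 42107185, minus strand) had 99.2% identity over 1287 aligned bases, and *Gm12856* on chromosome 4 (118942060 to 118943352, minus strand) 98.1% over 1294. The other copies were *Gm8416* on chromosome 14 (8408917 to 8410195, plus strand) with 97.3% identity over 1290 bases and *Gm4870* on chromosome 5 (143438393 to 143439643, plus strand) with 94.4% over 1272. The next most similar, *Gm7067*, held 5.6% of its words in common with *Ccnb1* and had at most 1 count in any pool. The longest coding stretch that was identical in *Ccnb1* and in all 4 copies ran over 81 bases and is shown to make plain what a read can share. It comes from chromosome 13 between 100785808 and 100785614 (GRCm38, minus strand), spans an exon junction, and is given in full in lower case because no base differs.
Ccnb1 shared stretch: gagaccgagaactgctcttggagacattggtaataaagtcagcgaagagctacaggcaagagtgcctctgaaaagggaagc

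With a single copy the identical runs were longer, reaching 278 coding bases for *Ccnb1-ps*, 218 for *Gm12856*, 193 for *Gm8416* and 160 for *Gm4870*. A window of 60 coding bases that differs from *Ccnb1* in every copy shows how few positions tell the loci apart. It lies within 1 exon of *Ccnb1* at chr13:100783476-100783535 (minus strand), and in the copies at chr7:42106660-42106719 (minus), chr4:118942827-118942886 (minus), chr14:8409374-8409433 (plus) and chr5:143438834-143438893 (plus), all on GRCm38. Capitals mark bases that differ from *Ccnb1*, of which there was 1 in each of the first copies and 7 in *Gm4870*.
Ccnb1: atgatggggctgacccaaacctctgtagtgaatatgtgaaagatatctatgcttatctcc
Ccnb1-ps: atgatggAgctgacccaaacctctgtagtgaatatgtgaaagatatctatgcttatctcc
Gm12856: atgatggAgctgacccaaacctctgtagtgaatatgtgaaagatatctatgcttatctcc
Gm8416: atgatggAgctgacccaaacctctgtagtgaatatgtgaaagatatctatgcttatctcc
Gm4870: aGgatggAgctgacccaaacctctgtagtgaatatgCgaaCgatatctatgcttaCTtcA

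The pseudogenes carried many counts. *Ccnb1-ps* held 9983, 8386 and 9969 counts in control pools 1 to 3 and 11996, 15303 and 10965 in quercetin pools 1 to 3, and all quercetin pools lay above all control pools. *Gm12856* held 6123, 5047 and 6117 counts in the controls and 7297, 9660 and 6829 with quercetin, again without overlap. *Gm8416* ranged from 2622 to 5294 counts and *Gm4870* from 368 to 756 counts over the 6 pools, and for both the groups overlapped. Log2 fold changes were 0.46 (SE 0.15, 95% interval 0.13 to 0.79, unadjusted p = 0.0113 by edgeR) for *Ccnb1-ps* and 0.49 (SE 0.15, 95% interval 0.15 to 0.82, unadjusted p = 0.00945 by edgeR) for *Gm12856*, each with a Benjamini-Hochberg adjusted p of 0.988. Of the counts on *Ccnb1* and its 4 copies together, 38.7%, 36.8% and 37.8% fell on the copies in control pools 1 to 3 and 43.8%, 39.4% and 37.2% in quercetin pools 1 to 3. Quercetin pool 1, the pool in which *Ccnb1* itself was lowest of the quercetin group, had the largest share on the copies. A low *Ccnb1* count raises this share by definition, and whether reads moved between the loci was not tested.

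When the counts of *Ccnb1* and the 4 copies were added, an alternative chosen after seeing the data, the sums were 5694, 5359 and 5999 CPM in control pools 1 to 3 and 6660, 8607 and 6650 CPM in quercetin pools 1 to 3. The groups then lay apart on both scalings, with 5674 to 6007 CPM in controls and 6300 to 7920 CPM with quercetin by library size only. The log2 fold change of the sum was 0.36 (SE 0.15, 95% interval 0.01 to 0.71), with an unadjusted p of 0.0441 and an adjusted p of 0.988 in edgeR's quasi-likelihood test. With *Ccnb1-ps* alone added, it was 0.35 (SE 0.15), with an unadjusted p of 0.0498 in the same edgeR test and the same adjusted p of 0.988. Adding thus took *Ccnb1* past the unadjusted threshold that 4.03% of all genes passed, and left it far from the adjusted one, while the added copies *Ccnb1-ps* and *Gm12856* passed the unadjusted one without *Ccnb1*.

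**Figure D2:**
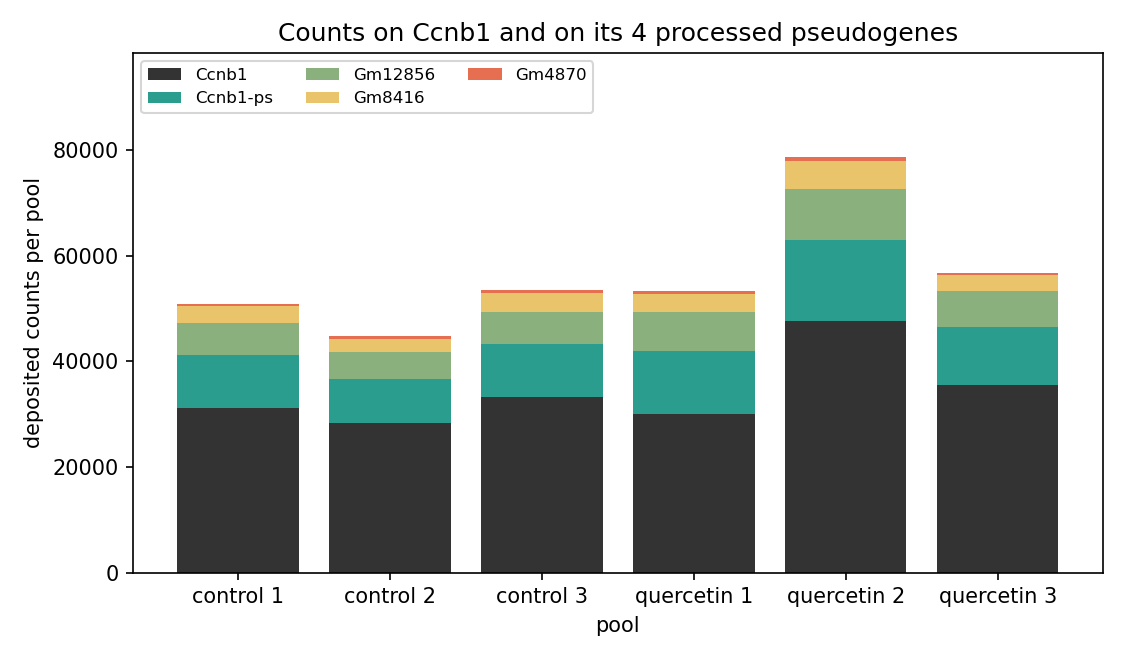
Deposited counts on *Ccnb1* (black) and on its 4 processed pseudogenes (colours), stacked, for each of 6 pools. The copies made up between 36.8% and 43.8% of each bar, and the tallest bar, quercetin pool 2, reached 78714 counts.

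*Ccnb2* encodes cyclin B2, which can bind CDK1 in place of cyclin B1, and its transcript (ENSMUSG00000032218, chromosome 9 from 70407692 to 70421547, minus strand) shared no 31-base words with other genes (0%). It was at 380, 305 and 412 CPM in control pools 1 to 3 and at 465, 457 and 305.5 CPM in quercetin pools 1 to 3. Control pool 2 and quercetin pool 3 were the low pools, at nearly the same level, and the groups overlapped. Quercetin over control gave a log2 fold change of 0.16 (SE 0.20, 95% interval -0.28 to 0.60, adjusted p = 0.988 by edgeR), which ran from 0.05 without control pool 2 to 0.34 without quercetin pool 3. *Ccnb3* encodes cyclin B3, a B-type cyclin that acts in the first meiotic division of the mouse oocyte (ENSMUSG00000051592, chromosome X from 6979652 to 7041619, minus strand). It had 112, 133 and 96 counts in the control pools and 67, 86 and 198 counts in the quercetin pools, so the highest and the lowest values both belonged to the quercetin group. The log2 fold change of *Ccnb3* was 0.06 (SE 0.39, 95% interval -0.82 to 0.95, adjusted p = 0.998 by edgeR), and it turned to -0.55 without quercetin pool 3, to -0.05 without control pool 3 and to -0.07 with limma-voom.

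*Cdk1* (ENSMUSG00000019942, chromosome 10 from 69335146 to 69352938, minus strand) encodes the kinase itself. Its level was 169, 151 and 122 CPM in control pools 1 to 3 and 123, 129 and 138.5 CPM in quercetin pools 1 to 3. Control pools 1 and 2 stood above all other pools and control pool 3 was the lowest of all, so that the groups overlapped. The log2 fold change was -0.18 (SE 0.16, 95% interval -0.54 to 0.18, adjusted p = 0.988 by edgeR), and it ran from -0.29 without control pool 3 to -0.07 without control pool 1. The kinases and phosphatases of the group act on a pair of neighbouring residues of CDK1, threonine 14 and tyrosine 15, and the coding stretch around them is shown with their codons in capitals. It lies between 69350111 and 69346206 on chromosome 10 (GRCm38, minus strand), across an exon junction.
Cdk1: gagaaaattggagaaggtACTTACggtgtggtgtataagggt

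The CDC25 phosphatases remove the inhibitory phosphates from CDK1, and CDC25B is the form required for mouse oocytes to resume meiosis. *Cdc25b* (ENSMUSG00000027330, chromosome 2 from 131186949 to 131198497, plus strand) had 75 counts in each of the control pools and 39, 62 and 87 counts in quercetin pools 1 to 3. In CPM the controls lay between 8.39 and 8.99, and the quercetin pools on both sides of them, at 4.87, 6.78 and 10.2. This gave a log2 fold change of -0.24 (SE 0.30, 95% interval -0.92 to 0.44, adjusted p = 0.988 by edgeR), which was -0.02 without quercetin pool 1 and -0.56 without quercetin pool 3.

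*Cdc25a*, the form that also acts earlier in the cell cycle (ENSMUSG00000032477, chromosome 9 from 109875579 to 109893895, plus strand), had 139, 85 and 127 counts in control pools 1 to 3 and 77, 27 and 96 counts in quercetin pools 1 to 3. Its level was 15.5, 10.2 and 14.2 CPM in the controls and 9.62, 2.95 and 11.3 CPM with quercetin, where pool 2 was far below the rest and pool 3 lay above control pool 2. Its log2 fold change of -0.75 was the farthest from 0 among the 9 tested members, with an SE of 0.43, a 95% interval of -1.73 to 0.23 and an adjusted p of 0.988 by edgeR. Without quercetin pool 2, the estimate was -0.35, and without quercetin pool 3 it was -1.09. *Cdc25c* had 4, 2 and 0 counts in the controls and 0, 2 and 5 counts with quercetin, and was under the count filter of the reported fit. Fitted in the alternative with all genes of at least 1 count, it had a log2 fold change of 0.24 (SE 1.24, 95% interval -2.46 to 2.93, adjusted p = 0.996 by edgeR). A count of 3, the upper limit that a count of 0 allows, corresponded to 0.336 CPM in control pool 3 and 0.375 CPM in quercetin pool 1, counting error alone considered.

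Of the inhibitory kinases, *Wee2* encodes the oocyte form of WEE1, which maintains prophase arrest and acts again at the exit from metaphase II (ENSMUSG00000037159, chromosome 6 from 40439088 to 40466813, plus strand). It had 6316, 5953 and 6513 counts in control pools 1 to 3 and 6717, 7696 and 6505 counts in quercetin pools 1 to 3. These corresponded to 706.5, 713 and 730.4 CPM in the controls and to 839, 841.5 and 763 CPM with quercetin. The control pools lay close together and every quercetin pool lay above them, also by library size only (728 to 755 CPM against 774 to 802 CPM) and per exon length (548 to 559 TPM against 579.5 to 636 TPM). For *Wee2* the log2 fold change was 0.18 (SE 0.12, 95% interval -0.10 to 0.47, adjusted p = 0.988 by edgeR), with an exact permutation p of 0.1, again the smallest possible. By library size only it was 0.10, the lowest of the alternatives tried, a scaling under which the median of all tested genes moved from -0.03 to -0.11.

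*Wee1*, the form of other cell types (ENSMUSG00000031016, chromosome 7 from 110122046 to 110143286, plus strand), had 15, 23 and 12 counts in the control pools and 11, 17 and 6 counts in the quercetin pools. Its log2 fold change was -0.54 (SE 0.48, 95% interval -1.63 to 0.55, adjusted p = 0.988 by edgeR), an interval that spans a wide range of differences in both directions, and the estimate ran from -0.88 without quercetin pool 2 to -0.20 without control pool 2. *Pkmyt1* encodes MYT1, a membrane-bound kinase that phosphorylates both inhibitory residues (ENSMUSG00000023908, chromosome 17 from 23726336 to 23736735, plus strand). It was at 18.8, 16.4 and 18.95 CPM in control pools 1 to 3 and at 19.5, 16.5 and 13.0 CPM in quercetin pools 1 to 3. Quercetin pool 3 was the low pool, and the groups overlapped. Its log2 fold change was -0.14 (SE 0.22, 95% interval -0.64 to 0.35, adjusted p = 0.988 by edgeR), and -0.004 without that pool. Exons of a gene on the other strand cover 12.7% of *Cdc25c* (*Gm3550*), 8.8% of *Pkmyt1* (*Paqr4*) and 2.5% of *Cdc25b* (*Spef1*). Reads from the 2 strands may not have been told apart there, since the treatment of strand is not given in the sources used here.

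**Figure D3:**
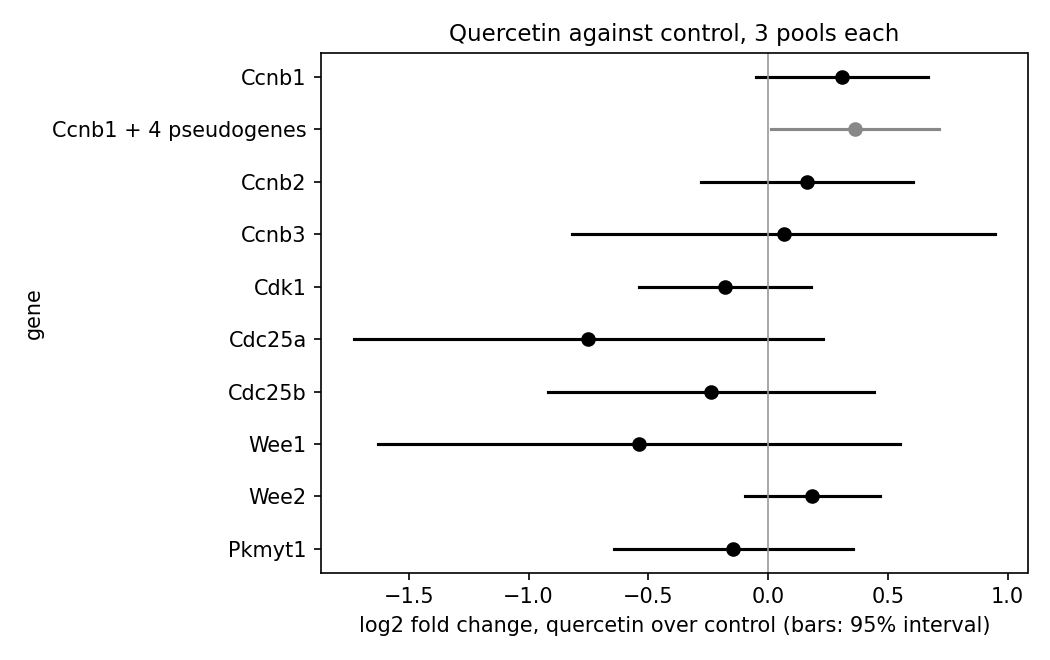
Log2 fold change (quercetin over control, 3 pools each) with its 95% interval for the 9 tested genes, and in grey for *Ccnb1* with the counts of its 4 pseudogenes added. Every black interval crosses 0, from 0.31 (-0.05 to 0.67) for *Ccnb1* to -0.75 (-1.73 to 0.23) for *Cdc25a*, and the sign of *Ccnb3* flips when quercetin pool 3 or control pool 3 is left out.

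Within a pool, the balance between partners was compared per exon length. The ratio of *Ccnb1* to *Ccnb2* was 3.33, 4.03 and 3.29 in control pools 1 to 3 and 2.93, 4.14 and 4.96 in quercetin pools 1 to 3. Both the lowest and the highest ratio came from the quercetin group. With the counts of the 4 pseudogenes added to *Ccnb1*, the mean ratio over 6 pools moved from 3.78 to 6.18. The 3 cyclin B genes together stood to *Cdk1* at ratios of 31.6, 32.8 and 46.6 in the controls and 47.9, 58.8 and 42.6 with quercetin, and the groups overlapped at control pool 3.

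*Wee2* exceeded *Wee1* by ratios of 282 to 591 in the controls and 493 to 1180.5 with quercetin, where the small counts of *Wee1* set the spread. The ratio of *Wee2* to the 3 Cdc25 genes was 52.6, 60.9 and 57.7 in control pools 1 to 3 and 107, 120.1 and 57.0 in quercetin pools 1 to 3. Quercetin pools 1 and 2 thus stood well above the other pools while pool 3 lay among the controls. *Cdc25b* made up 52.6%, 64.6% and 56.0% of the Cdc25 level in the controls and 52.2%, 81.5% and 64.3% with quercetin. *Cdc25a* made up most of the remainder, with a mean over the 6 pools of 36.8 ± 11.7%. With the longest transcript in place of all exons, *Cdc25a* and *Cdc25b* had nearly equal shares of 49.7% and 48.6%.

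Across the 6 pools, the levels of the members did not move as a unit. Pearson's r of log2 CPM between pairs of the 9 tested members, over 6 pools that share library preparation and scaling, ran from -0.94 for *Ccnb2* with *Ccnb3* to 0.85 for *Ccnb3* with *Cdc25b*. *Ccnb1* had r = 0.72 with *Wee2* and r = -0.86 with *Cdc25a*, while *Ccnb1* and *Cdk1*, the partners in one complex, had r = -0.44. These values run over both groups together, and the groups lay apart for both *Ccnb1* and *Wee2*. In quercetin pool 2, *Ccnb1* was at its highest and *Cdc25a*, with 27 counts, at its lowest. Among 2742 genes with a mean of at least 50 CPM, those whose pattern was most like *Ccnb1* were *Rnf146* (r = 0.985), *Slc6a15* (r = 0.983) and *Cdc7* (r = 0.979). The pattern of *Cdk1* was nearest to *Chd7* (r = 0.951), *Cand1* (r = 0.924) and *Abl2* (r = 0.907), and that of *Wee2* to *Scamp1* (r = 0.997), *Pigp* (r = 0.993) and *Snap23* (r = 0.992). With 6 points and this many genes, high values of r arise readily.

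The annotated 3′ ends were searched for sequence features that act on stored transcripts, namely the poly(A) signal (AATAAA or ATTAAA) and the cytoplasmic polyadenylation element (CPE, TTTTAT or TTTTAAT), on the transcript strand in the last 100 bases of the transcript with the longest coding sequence. A poly(A) signal was present in all 10 members and in 79.1% of 9819 tested coding genes. A CPE was present in 2 members, *Ccnb3* and *Wee2*, and in 20.8% of the tested coding genes. In *Wee2* the poly(A) signal and the CPE TTTTAT were neighbours, starting 8 bases apart. These elements are shown in capitals from the 3′ untranslated region at chr6:40466780-40466809 (GRCm38, plus strand). The other CPE form, TTTTAAT, was also found in the *Wee2* window but lies outside the stretch shown. For the other members the search says only that these letters were not found in this window, since a gene can use other 3′ ends than the one searched.
Wee2: tcattgtaAATAAAgaTTTTATcttatcca

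Genes that act around the members were followed in 5 lists. In all, 73 of 78 list genes were tested, of which 1 was higher and 1 lower at an unadjusted p under 0.05 (2.74%, against 4.03% of all tested genes), none was called after adjustment, and the median log2 fold change was 0.04. The pools lay apart in TMM-scaled CPM for 7 of the 73 (all tested genes: 10.6%). The first list held CDK1 partners, related cyclins and CDK inhibitors, with 12 of 14 tested, none past the unadjusted threshold in either direction and a median log2 fold change of -0.01. The CDK-binding subunit genes *Cks2* (6044 ± 662 TPM over 6 pools) and *Cks1b* (2739.6 ± 202 TPM) were its most abundant, and 31.7% and 17.3% of their 31-base words occur in other genes. *Cks2* lay above *Ccnb1* in all 6 pools, also with the 4 pseudogene counts added to *Ccnb1*. *Cks1b* lay above *Ccnb1* in 5 of 6 pools, in 3 with the longest transcript as length and in 0 with the pseudogene counts added. The smallest p belonged to *Mnat1*, a subunit of the CDK-activating kinase, with a log2 fold change of -0.42 (SE 0.25). The CDK inhibitor gene *Cdkn1b* followed with -0.82 (SE 0.54) and the cyclin A2 gene *Ccna2* with -0.15 (SE 0.16), the last at 163 ± 18.3 TPM.

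The Greatwall pathway restrains the phosphatase PP2A, which removes phosphates that CDK1 has placed on its substrates. The list of this pathway also held genes of the phosphatases PP1 and CDC14. Of its 16 genes 14 were tested, 0 passed the unadjusted threshold, and the median log2 fold change was 0.07. *Mastl*, which encodes the Greatwall kinase, was at 537, 458 and 526 CPM in control pools 1 to 3 and at 568, 564 and 614 CPM in quercetin pools 1 to 3. On this scale all quercetin pools lay above the controls, but the groups overlapped by library size only (485 to 554 CPM against 519 to 645 CPM) and per exon length (195 to 229.7 TPM against 211 to 278 TPM). The log2 fold change was 0.20 (SE 0.13, 95% interval -0.10 to 0.50, adjusted p = 0.988 by edgeR). Its substrate gene *Arpp19* had a log2 fold change of 0.34 (SE 0.19) and *Ppp2r1a*, a scaffold subunit of PP2A, one of 0.19 (SE 0.15), both with overlapping pools.

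Upstream of the CDC25 and WEE1 enzymes, 16 of 17 genes were tested and the median log2 fold change was 0.07. The checkpoint kinase gene *Chek1*, whose product phosphorylates CDC25, was the gene of this list past the unadjusted threshold. It stood at 1226, 1026 and 1293 CPM in control pools 1 to 3 and at 1520.3, 1514 and 1402 CPM in quercetin pools 1 to 3, so that the groups lay apart. Its log2 fold change was 0.32 (SE 0.14, 95% interval 0.01 to 0.64), with an unadjusted p of 0.0463 and an adjusted p of 0.988 in edgeR's quasi-likelihood test. It passed the unadjusted threshold in 8 of 16 alternatives, among them the fits that added pseudogene counts to *Ccnb1*, which could hardly change *Chek1*. It did not pass with DESeq2, the likelihood ratio test, scaling by library size only, the replicate block or any of 4 pools left out. *Aurka*, encoding the kinase Aurora A, had a log2 fold change of 0.24 (SE 0.14), and the 14-3-3 genes *Ywhaz* and *Ywhae*, whose products bind phosphorylated CDC25, had 0.23 (SE 0.13) and 0.20 (SE 0.15).

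All 20 genes for the destruction of cyclin B, which encode the anaphase-promoting complex, its activators, inhibitors and ubiquitin-conjugating enzymes, were tested, with a median log2 fold change of 0.03. *Ube2s*, the enzyme that extends ubiquitin chains on substrates of the complex, was the gene past the unadjusted threshold, at 15.4, 10.7 and 10.4 CPM in control pools 1 to 3 and 7.49, 8.75 and 8.45 CPM in quercetin pools 1 to 3. The groups lay apart, and the log2 fold change was -0.56 (SE 0.25, 95% interval -1.12 to -0.005) with an unadjusted p of 0.0484 and an adjusted p of 0.988 in edgeR's quasi-likelihood test. It passed the unadjusted threshold in 4 of 16 alternatives, and in none that left out a pool. Among these 4 were the fits that added pseudogene counts to *Ccnb1*, which could hardly change *Ube2s*. The other passes came with scaling by library size only and with at least 10 counts in every pool. The activators differed widely in level per exon length, with *Cdc20* at 221 ± 28.5 TPM and *Fzr1* at 3.65 ± 1.53 TPM over 6 pools. Their log2 fold changes were 0.19 (SE 0.13) and -0.62 (SE 0.35). The subunit genes *Cdc26* and *Cdc27* had log2 fold changes of 0.48 (SE 0.29) and 0.03 (SE 0.13).

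Translation of cyclin B mRNA is governed by proteins that bind its 3′ end and by enzymes that lengthen or shorten its poly(A) tail. All 11 genes of this list were tested, 0 passed the unadjusted threshold and the median log2 fold change was 0.12. *Btg4*, an adaptor that brings the CCR4-NOT deadenylase to maternal mRNA, stood at 10466 ± 1093 TPM over 6 pools, far above *Ccnb1*. *Dazl*, an RNA-binding activator of translation, was at 869 ± 86.2 TPM and the deadenylase gene *Cnot7* at 831 ± 109 TPM. Their log2 fold changes were 0.12 (SE 0.18) for *Btg4*, 0.22 (SE 0.14) for *Dazl* and 0.30 (SE 0.17) for *Cnot7*. *Pum2*, encoding a repressor, had -0.48 (SE 0.32) and a single low pool, quercetin pool 2, at 35.4 CPM against 87.6 to 109 CPM in the other 5.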

How the data were processed

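The file deposited by the authors holds raw counts, without normalization, for 53465 Ensembl genes and 6 pools. Per their methods the reads were aligned with Hisat2 to GRCm38, whereas the submitters' processing notes name TopHat2 2.0.6 and CASAVA 1.8, so the aligner is uncertain. The counting program and its treatment of strand and of reads that match several genes are not given in the sources used here.

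Symbols were matched for 53274 identifiers. Exon lengths, coordinates and transcript sequences came from GENCODE release M21 (GRCm38). TPM was computed from the counts and the length of all exons of a gene. Words of 31 bases shared between transcripts measured common sequence, and pseudogene copies were aligned to the longest coding *Ccnb1* transcript with Biopython 1.88. Totals ran from 7880467 to 9938743 counts per pool, and 3 counts, the limit that a count of 0 allows, were 0.302 to 0.381 CPM by unscaled library size.

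Genes passing filterByExpr (minimum count 10) were scaled by TMM and fitted with edgeR 4.0.16 in R 4.3.3 (glmQLFit and glmQLFTest, no covariate), with Benjamini-Hochberg adjustment over 11842 genes. Called genes differed by more than 2-fold at an adjusted p under 0.05. Each SE was taken from the estimate and its F statistic (estimate over root F). For single values the pool labels were permuted exhaustively (exact, two-sided) on log2 of CPM plus 0.5. The fit was tested on simulated counts.

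Named were all 10 members, from each of 5 lists of regulators the 3 tested genes with the smallest p and the 2 with the highest level per exon length, and the 3 genes most correlated with each of *Ccnb1*, *Cdk1* and *Wee2*. The members and lists were chosen with earlier results of these data known. Groups and pool numbers came from the labels. The fit was also made with limma-voom (limma 3.58.1), with DESeq2 1.42.0, with the likelihood ratio test of edgeR, with 2 other scalings, with 2 other filters, without each pool and with the replicate number as a block, and ratios were taken with other lengths. Adding pseudogene counts to *Ccnb1* was chosen after seeing the data. Tables and plots used Python 3.11.15, pandas 2.3.3, numpy 2.4.6 and matplotlib 3.10.9.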

Additional observations from a re-analysis of the deposited data

How the results depend on the processing

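No member was called in any of 14 alternatives. All genes called, 0 in the reported fit, numbered 12 with DESeq2, 16 with the likelihood ratio test, 3 with genes of at least 1 count in total, and 0 to 7 with a pool left out (7 without quercetin pool 1). The 477 genes at an unadjusted p under 0.05 became 780 with genes of at least 1 count and 241 to 1563 with a pool left out, the lowest without control pool 2 and the highest without quercetin pool 3. Scaling by library size only lowered the share higher with quercetin among such genes from 53.0% to 28.8%. It was 58.1% with DESeq2, 45.3% with the likelihood ratio test, 50% with limma-voom and 59.5% with DESeq2's size factors. The share was 47.9% with genes of at least 1 count, 53.6% with at least 10 counts in every pool and 45.1% with the replicate block. With a pool left out, it ran from 36.3% without quercetin pool 3 (567 higher and 996 lower) to 57.0% without control pool 3.

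Members at an unadjusted p under 0.05 numbered 0, but 1 with the replicate block (*Cdc25a*) and 1 with the counts of *Ccnb1-ps* or of all 4 pseudogenes added (*Ccnb1*), and 0 with any pool left out. List genes at that threshold, 2 in the report (*Chek1* and *Ube2s*), were 0 with DESeq2 and with the likelihood ratio test. There was 1 each with limma-voom, both other scalings, genes of at least 1 count and the block, and 0 to 7 with a pool left out, the highest without quercetin pool 3. Of all tested genes, 12.8% passed without quercetin pool 3 and 1.98% to 4.56% in the other alternatives. The list genes counted under the block, without control pool 1 and without quercetin pool 2 were neither *Chek1* nor *Ube2s*. The cause of these moves was not tested.

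*Ccnb3* had a log2 fold change of 0.06 that reversed with limma-voom (-0.073), with the replicate block (-0.075) and without a pool (range -0.55 to 0.32). The other tested members kept their sign in every alternative, with ranges of 0.17 to 0.41 for *Ccnb1*, 0.05 to 0.34 for *Ccnb2*, -0.29 to -0.07 for *Cdk1*, -1.09 to -0.35 for *Cdc25a*, -0.56 to -0.02 for *Cdc25b*, -0.88 to -0.20 for *Wee1*, 0.10 to 0.23 for *Wee2* and -0.29 to -0.004 for *Pkmyt1*. *Wee1* could not be fitted with at least 10 counts in every pool. Pools with the same number correlated at 0.305, 0.0923 and -0.0313 in their deviations from the group means. Pools with different numbers correlated at -0.305 to 0.187, so 0.305 lay above that range and the other same-number values inside it. With so few pools these values cannot decide whether equal numbers mark pools handled together. The reported fit used no block, and the fit with the replicate number as a block is given as an alternative.

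The mean ratio of *Ccnb1* to *Ccnb2*, 3.78, was 6.41 with the longest transcript as length, 10.4 without length correction, 4.99 with *Ccnb1-ps* added and 6.18 with all 4 pseudogenes added. The ratio of the cyclin B genes to *Cdk1*, 43.4, became 59.4, 32.1, 54.5 and 65.3 in the same order. Without length correction, *Wee2* stood to the Cdc25 genes at 45.8 in place of 75.8. *Cdc25a* made up 49.7% with the longest transcript and 54.4% without length correction, in place of 36.8%, and *Cdc25b* 48.6% and 44.3% in place of 61.9%.

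The main limits are 3 pools a group, unknown handling of reads that match several loci, and low counts of *Wee1*, *Cdc25a*, *Cdc25b* and *Cdc25c*. Intervals as wide as that of *Wee1* leave sizeable differences in either direction possible. Because the libraries were primed from the poly(A) tail, a difference in tail length, between groups or genes, cannot be told apart from one in mRNA amount. mRNA levels in such libraries say nothing of protein, phosphorylation or kinase activity.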

Other observations

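*Cpeb4*, a gene of the translation list that encodes a CPE-binding protein and was singled out after its values were seen, had 1981, 1441 and 134 counts in control pools 1 to 3 and 251, 3042 and 1615 counts in quercetin pools 1 to 3. Control pool 3 and quercetin pool 1 were thus far below the other 4 pools, at 15.0 and 31.3 CPM against 173 to 333 CPM, and the low pools came from both groups. The coefficient of variation over the 6 pools was 74.9%, against 17% for *Ccnb1* and 7.96% for *Wee2*.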
